A study of Homo sapiens with 6 samples.

Results

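The mRNAs of the small ribosomal subunit proteins were compared between 3 libraries made with probes against SNHG10, a long noncoding RNA, and 3 made with probes against LacZ, a bacterial gene that human cells do not carry. All 6 came from SK-Hep1, an established line labelled as hepatocellular carcinoma, with no further treatment or genotype in the labels. The series set out to find messenger RNAs retrieved with SNHG10 by ChIRP, in which biotinylated antisense probes pull down an RNA together with what is bound to it. The SNHG10 probes are labelled as a complete set from RiboBio and the LacZ probes as a control set from Millipore, so probe target and probe maker cannot be told apart. The extraction protocol in the labels names Trizol and total RNA and no capture step, so whether captured or total RNA was sequenced is not known from these sources. Members were all rows named RPS followed by a digit, RPSA or FAU, without the RPS6K kinases, the RPS4Y genes and RPS19BP1. They came to 34 of 11593 gene symbols and 142 of 28768 transcript rows, and 33 genes and 112 rows passed the filter on low values.

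The small ribosomal subunit holds the messenger RNA and reads its codons, while the large subunit joins the amino acids. Its proteins sit in a head, which swings over the mRNA channel, and in a body with a platform, which carries the decoding centre, and cells make them in matched amounts. Most of their mRNAs begin with an uninterrupted run of C and T bases, the terminal oligopyrimidine (TOP) tract, through which growth signals switch their translation on and off together. Many of their genes carry small nucleolar RNAs in their introns, as SNHG10 itself carries a small Cajal body RNA.

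The tract could be read at the annotated gene starts. RefSeq start sites (GRCh38.p14, a different build from the hg19 of the measurements) were at hand for 26 of the 34 members, with 29 starts. A start was counted when the first base was C and at least 4 further C or T bases followed without a break. That held for 19 of the 29 starts (65.5%), each in a different gene, against 1429 of 35116 starts of all genes (4.07%) and 30 of 58 of the large subunit (51.7%). The lines below show 20 bases before and 20 bases from the start, read 5′ to 3′ on the strand of the gene, with the pyrimidine run from the first transcribed base in capitals. They are shown for the members whose values are described most closely and for the paralog pair RPS27 and RPS27L, which differ at this place. RPS27A has 3 starts in the table, of which the one with a run is shown and the other two have none at the first base, and RPS19 likewise has one of each.
FAU (chr11:65122115-65122154, minus strand): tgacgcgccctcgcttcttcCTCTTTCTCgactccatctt
RPS3 (chr11:75399498-75399537, plus strand): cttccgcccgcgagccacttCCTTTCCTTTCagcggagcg
RPSA (chr3:39406700-39406739, plus strand): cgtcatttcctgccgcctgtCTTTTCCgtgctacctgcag
RPS18 (chr6:33272055-33272094, plus strand): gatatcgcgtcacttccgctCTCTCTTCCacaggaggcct
RPS6 (chr9:19380217-19380256, minus strand): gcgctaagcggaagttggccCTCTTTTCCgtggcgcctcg
RPS24 (chr10:78033843-78033882, plus strand): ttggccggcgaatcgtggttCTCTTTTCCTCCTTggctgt
RPS27A (chr2:55232668-55232707, plus strand): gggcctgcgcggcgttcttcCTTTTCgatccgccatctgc
RPS27 (chr1:153990742-153990781, plus strand): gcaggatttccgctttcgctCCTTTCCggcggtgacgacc
RPS27L (chr15:63157458-63157497, minus strand): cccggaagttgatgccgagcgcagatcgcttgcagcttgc
RPS26 (chr12:56041898-56041937, plus strand): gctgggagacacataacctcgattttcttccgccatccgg
RPS29 (chr14:49598691-49598730, minus strand): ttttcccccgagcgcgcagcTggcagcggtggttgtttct

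The run was 9 bases long in FAU, 11 in RPS3 and 14 in RPS24, while RPS27L and RPS26 began with G and RPS29 with a single T. The 7 members with a start at hand and no such run at the first base were RPS15, RPS26, RPS27L, RPS28, RPS29, RPS4X and RPS7. Start sites in an annotation can be off by a few bases, so a missing run says only that these letters are not at the annotated base. Within the whole window of 250 bases before and 50 after the start, read on both strands, the ETS core CCGGAA stood in 58.6% of the small-subunit starts and 17.2% of all starts. The SP1 core GGGCGG stood in 58.6% of the small-subunit starts and 45.0% of all starts, and the YY1 core AAGATGGC in 10.3% of the small-subunit starts and 2.89% of all starts. In the starts of the large subunit the shares were 46.6% for the ETS core, 51.7% for the SP1 core and 8.62% for the YY1 core. None of these motifs contains another, and a match is not a binding site.

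Libraries were alike in total, with 268794 to 272909 FPKM for SNHG10 probes and 271354 to 277118 FPKM for LacZ probes. FPKM are fragment numbers scaled to transcript length and library size, as deposited, so levels of different genes can be set side by side. Read depth is unknown, and all rows were marked protein coding, so SNHG10 itself was not analysed here. The mitochondrially encoded mRNAs held 13.98% to 14.05% of the total in SNHG10 libraries, against 12.81% to 13.43% in LacZ libraries. Their part in the member values was not tested beyond rescaling to the rest of the total, given below. Of 15 hepatocyte markers only SERPINA1 and CPS1 were listed, summing to 1.04 to 1.72 FPKM in SNHG10 libraries, against 1.25 to 2.12 FPKM in LacZ libraries, and ALB and AFP were not among the rows. Of 12 endothelial markers ENG, EGFL7 and ROBO4 were listed (summing to 42.4 to 51.2 FPKM in SNHG10 libraries, against 46.4 to 61.8 FPKM in LacZ libraries). Of 6 leukocyte markers CD14 and CD68 were listed (36.8 to 56.1 FPKM in SNHG10 libraries, against 43.1 to 56.5 FPKM in LacZ libraries). Among endothelial markers EGFL7 read 8.30, 7.45 and 8.18 FPKM in SNHG10 libraries, against 26.0, 18.8 and 14.0 FPKM in LacZ libraries, without overlap (limma adjusted p = 0.778), and its part in the member values was not tested. ENG and ROBO4 did not follow EGFL7. Both overlapped, with SNHG10 minus LacZ differences of 0.04 and 0.23 on the log2(FPKM + 1) scale. No label says that replicates were separate cultures, so p-values speak only of the variation among these libraries, possibly technical. Across the 33 tested members, LacZ replicate 1 correlated with the other 5 libraries at r = 0.882 to 0.914 on the log2(FPKM + 1) scale, and those 5 with one another at 0.915 to 0.974, a description over genes that share each library. Without LacZ replicate 1 no member was called either, and the signs were 16 positive and 17 negative.

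Small-subunit mRNAs were among the most abundant messages with either probe set. Together they read 11256, 10797 and 11770 FPKM in SNHG10 libraries, against 11424, 11111 and 11348 FPKM in LacZ libraries. As a share of the FPKM total that was 4.19%, 4.02% and 4.31% in SNHG10 libraries, against 4.16%, 4.01% and 4.18% in LacZ libraries. The groups overlapped, with a difference of 0.055 percentage points (two-sided exact permutation p = 0.5, where 3 against 3 libraries cannot go below 0.1), and of -0.0153 without SNHG10 replicate 3. Without the mitochondrially encoded mRNAs in the total, the shares were 4.85% ± 0.171 in SNHG10 libraries, against 4.74% ± 0.101 in LacZ libraries (SD, n = 3 each, exact p = 0.4). The ratio of summed small-subunit to summed large-subunit FPKM was 0.716, 0.672 and 0.704 in SNHG10 libraries, against 0.691, 0.678 and 0.716 in LacZ libraries (exact p = 0.9). That difference of 0.002 is smaller than the spread between libraries and turned negative when SNHG10 replicate 1, SNHG10 replicate 3 or LacZ replicate 2 was left out (down to -0.0072).

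Levels differed widely within the family. By mean over the 6 libraries the tested members spanned 51.5-fold, from RPS2 at 1179 FPKM to RPS27L at 22.9 FPKM, or 23.2-fold without that paralog, and 30 of the 34 members were above 100 FPKM. In rank among all genes, 31 members stood above the 95th percentile. The 5 most abundant members, RPS2, RPS18, RPS10, RPS27 and RPSA, held 35.7% of the family's FPKM. RPS2, a protein on the entry side of the mRNA channel, read 1089, 1085 and 1158 FPKM in SNHG10 libraries, against 1195, 1339 and 1206 FPKM in LacZ libraries. RPS18, a head protein that touches the large subunit, read 1169, 932 and 1080 FPKM in SNHG10 libraries, against 818, 856 and 963 FPKM in LacZ libraries. RPS10, a head protein near the mRNA entry, read 690.4, 711 and 648 FPKM in SNHG10 libraries, against 711, 659.7 and 579 FPKM in LacZ libraries. RPS2 was lower in every SNHG10 library than in every LacZ library, while RPS18 and RPS10 overlapped.

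**Figure D1:**
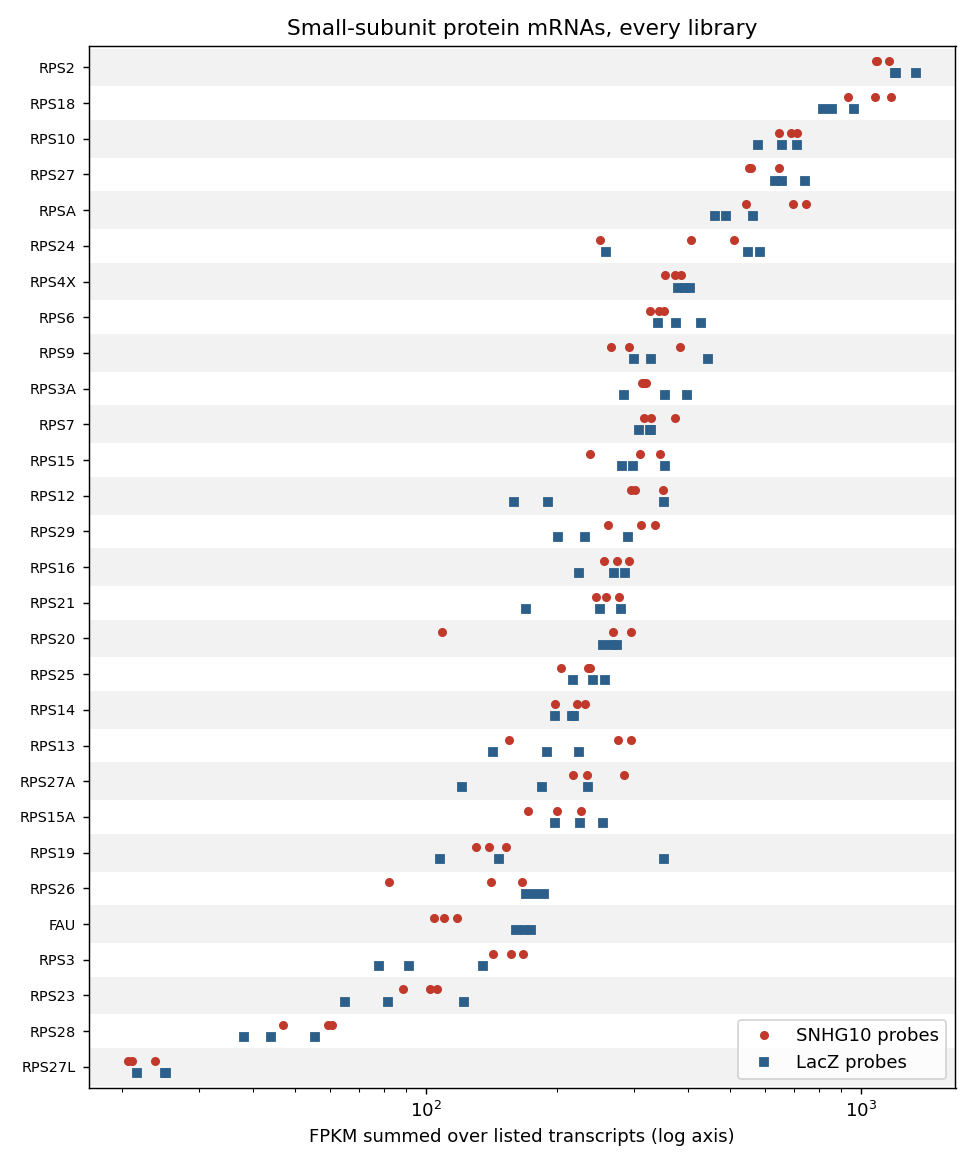
FPKM of 29 of the 33 tested members in every library on a log axis, summed over listed transcripts, with circles for SNHG10 probes above squares for LacZ probes, ordered by mean. RPS2 and RPS18 lie highest, with means of 1179 and 969.7 FPKM, RPS27L lies lowest at 22.9 FPKM, and in most members circles and squares interleave.

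At the low end stood a paralog, a readthrough gene and a small head protein. RPS27L, a close copy of RPS27 that is known as a target of p53, read 21.0, 20.6 and 23.7 FPKM in SNHG10 libraries, against 25.0, 21.6 and 25.2 FPKM in LacZ libraries. Its partner RPS27, a zinc-binding protein of the body, read 559.9, 553 and 649 FPKM in SNHG10 libraries, against 657, 635 and 745 FPKM in LacZ libraries. Reads of such close copies can be split between them, but the levels of this pair, one with and one without the pyrimidine start shown above, were far apart in all 6 libraries. RPS28, which lies beside the mRNA exit, read 60.8, 46.9 and 59.6 FPKM in SNHG10 libraries, against 55.6, 38.1 and 43.9 FPKM in LacZ libraries. RPS10-NUDT3, annotated across RPS10 and its neighbour NUDT3, was listed at 0 in 5 libraries and at 11.5 FPKM in LacZ replicate 1, and did not pass the filter. The 19 members with a pyrimidine start ranged from 94.2 to 969.7 FPKM (median 267), and the 7 without from 22.9 to 381 FPKM (median 272).

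No small-subunit gene differed between the probe sets past the threshold. Gene sums were tested with limma on log2(FPKM + 1) over all 10304 genes that reached 1 FPKM in 3 libraries, adjusted by Benjamini-Hochberg and called under 0.05, and all differences below are SNHG10 minus LacZ on that scale. Of the 33 members 0 were called, as were 0 of all genes (0%), and the smallest adjusted p among members was 0.560, for FAU. At an unadjusted p under 0.05 there were 5 members (15.2%), 3 with positive and 2 with negative differences, against 5.42% of all genes and 4.66% of the 1973 other genes at or above the mean of RPS27L. The 3 SNHG10 libraries lay all above the LacZ libraries in 1 member, RPS3, where the share over all genes was 4.22%. They lay all below in 3 members, FAU, RPS2 and RPS26, where the share over all genes was 7.21%. The median difference of the 33 members was -0.04, beside -0.05 over all genes. Of the members 15 were positive and 18 negative, where all genes tested had 4458 positive and 5846 negative. Differences of less than 0.5 either way were seen in 29 members (87.9%), beside 77.3% of all genes. In the other genes at or above the mean of RPS27L that share was 93.5%. The groups are probe sets used on the same cell line, and whether captured or total RNA was sequenced is not known. Retrieval by a probe set and amount in the cells therefore cannot be told apart. In bulk libraries, the number of cells that hold an mRNA and its amount per cell cannot be told apart either.

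Of the 14 head proteins, 8 had positive and 6 negative differences, with a median of 0.08. RPS3, which lines the mRNA entry and also takes part in DNA repair (hg19 chromosome 11, 75110530 to 75133324, plus strand), read 157, 167 and 142 FPKM in SNHG10 libraries, against 77.7, 135 and 91.1 FPKM in LacZ libraries. Its difference was 0.65 ± 0.20 (SE, limma adjusted p = 0.885), and it ranged from 0.48 without LacZ replicate 1 to 0.87 without LacZ replicate 2 (adjusted p of 0.506 to 0.925 over the alternatives). RPS18 (chromosome 6, 33239787 to 33244287, plus strand) differed by 0.27 ± 0.11, and its groups overlapped by a single pair of libraries. RPS29, a small zinc-binding protein (chromosome 14, 50037702 to 50053094, minus strand), read 312, 262 and 336 FPKM in SNHG10 libraries, against 232, 201 and 291 FPKM in LacZ libraries, a difference of 0.34 ± 0.16, or 0.22 without LacZ replicate 2. None of these head genes passed, and the limma adjusted p of RPS18 and RPS29 was 0.885 as well.

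Of the 19 body and platform proteins, 7 had positive and 12 negative differences, with a median of -0.11, beside -0.05 over all genes. RPSA, a body protein also known as the laminin receptor (chromosome 3, 39448180 to 39454033, plus strand), averaged 662 ± 106 FPKM in SNHG10 libraries, against 505 ± 52.5 FPKM in LacZ libraries (SD, n = 3 each). Its difference was 0.38 ± 0.14 (SE, limma adjusted p = 0.885), and SNHG10 replicate 1, at 544 FPKM, lay below LacZ replicate 3, at 564 FPKM. RPS26, which contacts the mRNA upstream of the start codon (chromosome 12, 56435637 to 56438459, plus strand), read 82.2, 141 and 166 FPKM in SNHG10 libraries, against 178, 186 and 169.7 FPKM in LacZ libraries. Its difference of -0.51 ± 0.24 rested largely on SNHG10 replicate 1, since it was -0.21 without that library and -0.72 without SNHG10 replicate 3 (adjusted p of at least 0.872 in all settings). RPS2 (chromosome 16, 2012053 to 2014861, minus strand) differed by -0.17 ± 0.07, a small difference in an mRNA that varied little between libraries. RPS6, the substrate of the S6 kinases, read 328, 344 and 352 FPKM in SNHG10 libraries, against 429, 341 and 375 FPKM in LacZ libraries, which overlap. RPS4X, encoded on the X chromosome, varied least of all members, at 354, 373 and 385 FPKM in SNHG10 libraries, against 393, 403 and 379 FPKM in LacZ libraries.

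**Figure D2:**
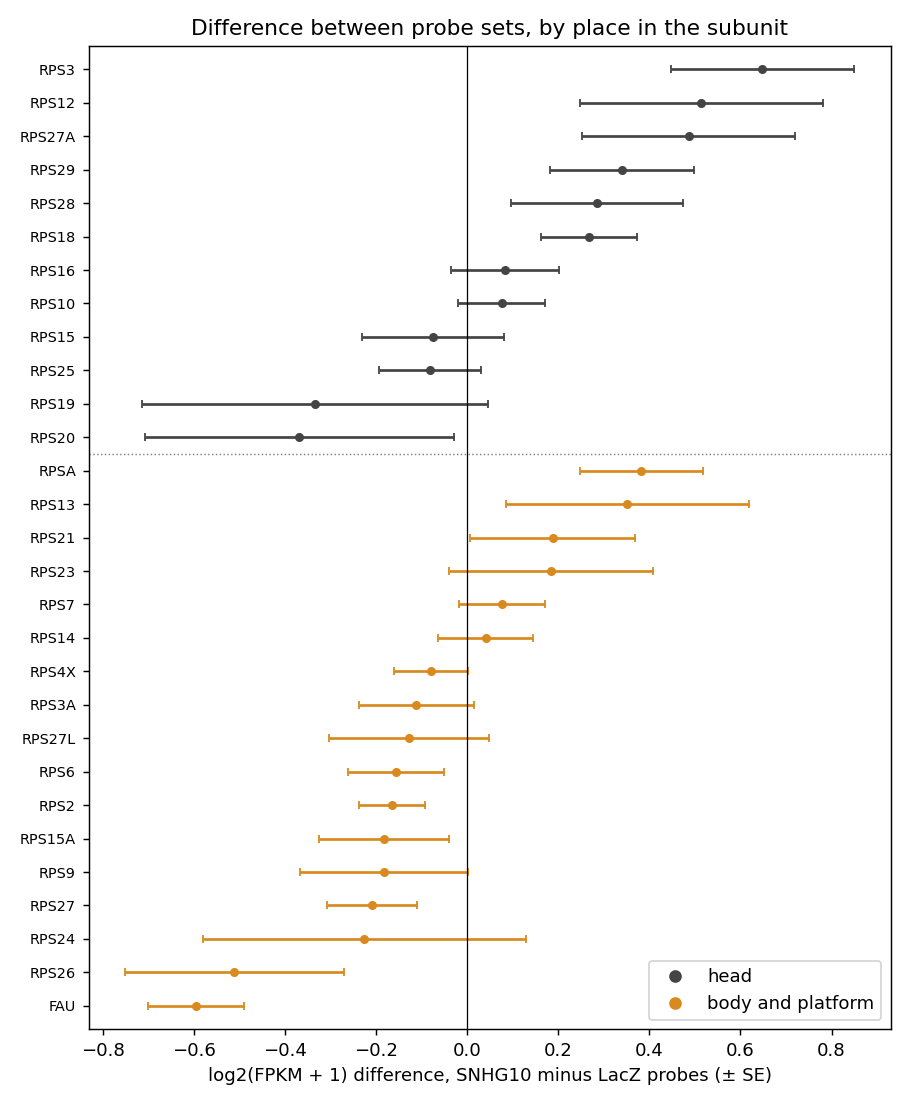
Difference in log2(FPKM + 1), SNHG10 minus LacZ probes, with its SE from limma for 29 of the 33 tested members, head proteins above the dotted line and body and platform proteins below it. Values run from 0.65 for RPS3 to -0.60 for FAU, and 0 of the 33 passed the threshold.

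The members made as fusions to a ubiquitin-like protein lay on opposite sides. FAU encodes protein S30 behind the ubiquitin-like FUBI (chromosome 11, 64888100 to 64889945, minus strand), and averaged 111 ± 6.78 FPKM in SNHG10 libraries, against 168 ± 6.57 FPKM in LacZ libraries (SD, n = 3 each). It had the smallest p of the members, with a difference of -0.60 ± 0.11 (SE), a leave-one-out range of -0.64 to -0.56, and an adjusted p of 0.560 that ran from 0.558 to 0.920 over the alternatives. RPS27A encodes ubiquitin in front of its ribosomal protein (chromosome 2, 55459538 to 55462989, plus strand), and read 285, 235 and 218 FPKM in SNHG10 libraries, against 235, 121 and 185 FPKM in LacZ libraries. Its difference was 0.49 ± 0.23 (limma adjusted p = 0.885), with 0.23 when LacZ replicate 2 was left out and 0.70 when LacZ replicate 1 was, and SNHG10 replicates 2 and 3 lay just under LacZ replicate 1. Neither fusion gene passed the threshold.

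**Figure D3:**
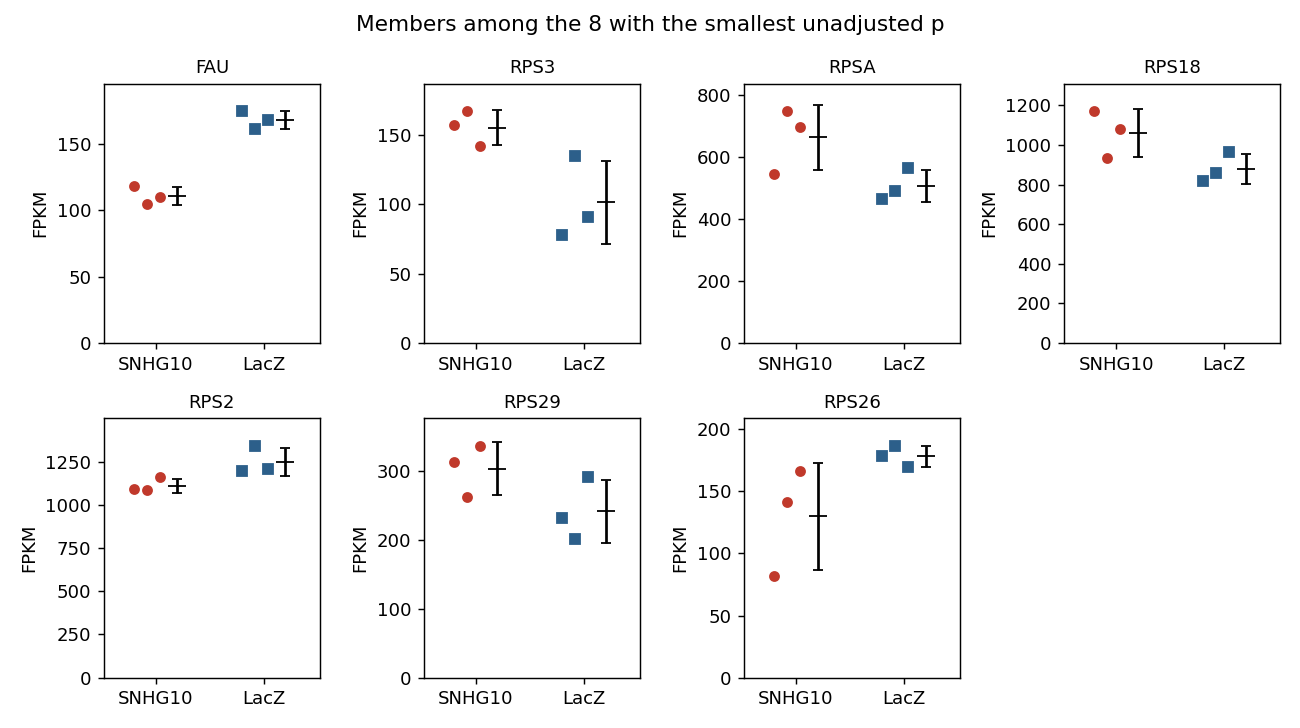
FPKM in each library for 7 of the 8 members with the smallest unadjusted limma p, with SNHG10 libraries (circles) left of LacZ libraries (squares), and the mean with its SD beside each group (n = 3 each). FAU, RPS3, RPS2 and RPS26 do not overlap between groups, while RPSA, RPS18 and RPS29 do.

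Of 10 small-subunit genes mutated in Diamond-Blackfan anaemia, an inherited failure of red cell production, 4 had positive and 6 negative differences. RPS26 alone did not overlap, which is 1 of 10, beside 11.4% of all genes without overlap in either direction. RPS19, the gene most often mutated in that disease, read 130.3, 153 and 139 FPKM in SNHG10 libraries, against 352, 108 and 147 FPKM in LacZ libraries, so that a single LacZ library stood far above the other 5. RPS20 had a single low library in the same manner, with 295, 109 and 268 FPKM in SNHG10 libraries, against 274, 255 and 267 FPKM in LacZ libraries. RPS24 read 405, 251 and 509 FPKM in SNHG10 libraries, against 259, 585 and 549 FPKM in LacZ libraries. These 3 genes had the widest spread among members, with a within-group SD of 0.56 to 0.63 (log2), against 0.05 for RPS4X and 0.07 for FAU. Over the 33 members the median within-group SD was 0.20, beside 0.23 in the other genes at or above the mean of RPS27L and 0.40 in all genes tested.

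Among the remaining members RPS12, a small head protein, read 296, 302 and 350.1 FPKM in SNHG10 libraries, against 353, 190.2 and 159 FPKM in LacZ libraries, a difference of 0.51 ± 0.27 (SE, limma adjusted p = 0.907). Without LacZ replicate 1 it was 0.85 (adjusted p = 0.580), and without LacZ replicate 3 it was 0.28. Its highest and its lowest value were both in LacZ libraries. Of the others, RPS3A, RPS7, RPS9, RPS13, RPS14, RPS15, RPS15A, RPS16, RPS21, RPS23 and RPS25 overlapped between probe sets. Their means lay between 94.2 FPKM for RPS23 and 336 FPKM for RPS9, and their differences between -0.18 for RPS9 and 0.35 for RPS13. With single libraries left out, RPS9 ranged from -0.34 (without SNHG10 replicate 2) to -0.017 (without LacZ replicate 2), and RPS13 from 0.17 (without LacZ replicate 2) to 0.64 (without SNHG10 replicate 2).

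Transcript rows varied more between libraries than the sums did. The median within-group SD of the 112 tested rows was 0.82 (log2), beside 0.70 over all 16618 tested rows. In the same limma fit on rows, 0 small-subunit rows passed, against 15 of all rows (0.0903%), and 5 of the small-subunit rows had an unadjusted p under 0.05, 3 positive and 2 negative. That is 4.46% of the small-subunit rows, below the 5.66% of all rows. The SNHG10 libraries lay all above in 5 rows (4.46%), where the share over all rows was 4.48%, and all below in 4 rows (3.57%), where it was 6.06%. Both shares were near or under those of all rows. Processed pseudogenes are numerous for these genes, and reads shared with them or between transcripts of a gene can be assigned differently from library to library.

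Rows without overlap shared the sign of their gene's sum in some genes and had the opposite sign in others. FAU-207, the main FAU transcript (chromosome 11, 64888100 to 64889945), read 89.6, 73.7 and 90.6 FPKM in SNHG10 libraries, against 143, 134 and 147 FPKM in LacZ libraries, a difference of -0.74 ± 0.13 (SE, limma adjusted p = 0.185 over all rows). It held most of the FAU difference, since the other 6 FAU transcripts stayed at or below 21.1 FPKM in every library. In RPS2 the main transcript RPS2-201 averaged 918 ± 44.7 FPKM in SNHG10 libraries, against 937 ± 31.9 FPKM in LacZ libraries (SD, n = 3 each) and overlapped, so the separation of the sum came from lesser rows. Among those, RPS2-203 read 22.9, 0.213 and 147 FPKM in SNHG10 libraries, against 13.6, 235 and 185 FPKM in LacZ libraries, while RPS2-202 had the opposite sign, with 50.9, 37.2 and 52.2 FPKM in SNHG10 libraries, against 24.9, 31.5 and 36.4 FPKM in LacZ libraries. RPS19-206 read 111, 101 and 101 FPKM in SNHG10 libraries, against 67.9, 81.9 and 92.6 FPKM in LacZ libraries, while the RPS19 sum had a difference of -0.33, or 0.16 without LacZ replicate 1. RPS27A-203, a shorter RPS27A transcript, read 67.6, 71.2 and 86.7 FPKM in SNHG10 libraries, against 64.8, 19.1 and 47.1 FPKM in LacZ libraries. RPS26 has a single listed row, which is its sum.

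In RPS24, 2 rows differed in opposite directions. RPS24-201 read 106, 141 and 338 FPKM in SNHG10 libraries, against 41.9, 78.0 and 0.995 FPKM in LacZ libraries, a difference of 3.19 ± 1.37 (SE, limma adjusted p = 0.912). Without LacZ replicate 3 the difference of RPS24-201 was 1.57 (adjusted p = 0.895). RPS24-202 read 272, 105 and 160 FPKM in SNHG10 libraries, against 166, 505 and 547 FPKM in LacZ libraries, a difference of -1.10 ± 0.54 that overlapped and ran from -1.66 without LacZ replicate 1 to -0.78 without SNHG10 replicate 2. Both rows end at the same base of chromosome 10 (79800455) and start close together, at 79793641 for RPS24-201 and 79793623 for RPS24-202, and neither passed.

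Other non-overlapping rows were small. RPS19-207 read 12.8, 19.96 and 9.33 FPKM in SNHG10 libraries, against 0, 7.13 and 5.04 FPKM in LacZ libraries. In RPS3 the main transcript RPS3-217 overlapped, at 69.6, 50.8 and 89.4 FPKM in SNHG10 libraries, against 52.6, 72.8 and 60.7 FPKM in LacZ libraries. RPS3-208 was the only one of the 10 RPS3 rows without overlap, at 9.33, 8.07 and 9.44 FPKM in SNHG10 libraries, against 11.99, 9.80 and 11.7 FPKM in LacZ libraries, opposite in sign to the RPS3 sum.

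**Figure D4:**
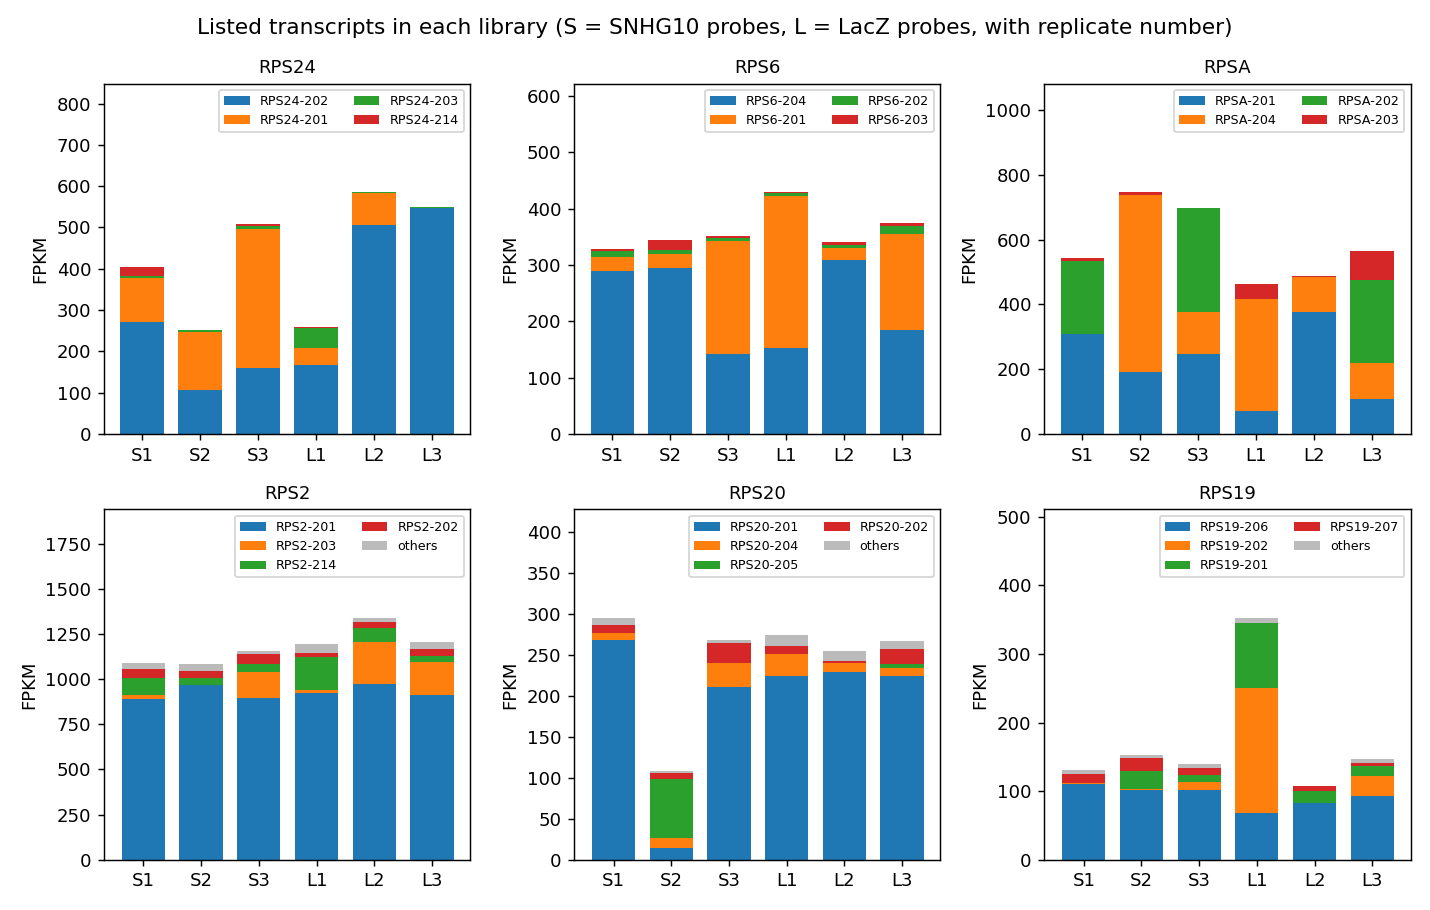
FPKM of the listed transcripts stacked within each library for RPS24, RPS6, RPSA, RPS2, RPS20 and RPS19, with the 3 SNHG10 libraries left of the 3 LacZ libraries and transcripts beyond the 4 most abundant in grey. Colours change between libraries of the same probe set, as in RPS20 with SNHG10 replicate 2 and RPS19 with LacZ replicate 1.

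In several genes the rows traded places between libraries while the sum varied less. In RPS6, RPS6-201 read 24.6, 25.7 and 200.2 FPKM in SNHG10 libraries, against 269, 21.8 and 171 FPKM in LacZ libraries, and RPS6-204 read 290.1, 294 and 142 FPKM in SNHG10 libraries, against 153, 309 and 184 FPKM in LacZ libraries. Where RPS6-201 was high RPS6-204 was low, and the gene sum stayed between 328 and 429 FPKM. In RPSA, RPSA-204 read 0, 549 and 129 FPKM in SNHG10 libraries, against 345, 109 and 112 FPKM in LacZ libraries, and RPSA-202 225, 0 and 321 FPKM in SNHG10 libraries, against 0, 0 and 257 FPKM in LacZ libraries. No row of RPS6 or RPSA set the probe sets apart.

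Single rows appeared in single libraries too. RPS13-201 read 132 FPKM in SNHG10 replicate 1 and was listed at 0 in the other 5 libraries, and RPS3A-211 read 51.0 FPKM in SNHG10 replicate 2 alone. RPS3A-212 read 37.8 FPKM in LacZ replicate 3 alone. In all, 8 member rows reached 5 FPKM in a single library and were at 0 in the rest, 3 of them in SNHG10 and 5 in LacZ libraries. A listed 0 can be a failed estimate, and 152 of the 852 member row values were 0.

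The transcript with the highest mean, called the lead transcript here, kept the top place in all 6 libraries in 20 of the 28 members with at least 2 listed rows and a sum above 0 throughout. Its share of the gene's FPKM ranged over 20 percentage points or more between libraries in 13 of the 28. RPS20-201 held 91.1%, 12.9% and 78.6% in SNHG10 libraries, against 81.8%, 90.01% and 84.2% in LacZ libraries. RPS24-202 held 67.0%, 42.0% and 31.4% in SNHG10 libraries, against 64.3%, 86.3% and 99.7% in LacZ libraries, a difference of -36.6 percentage points that still overlapped (exact permutation p = 0.2). The shares of RPS27-201, RPS29-201 and RPS18-230 stayed above 97% in every library. Lead shares of the 28 genes overlapped between probe sets without exception, and the smallest Benjamini-Hochberg adjusted exact p was 0.933.

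**Figure D5:**
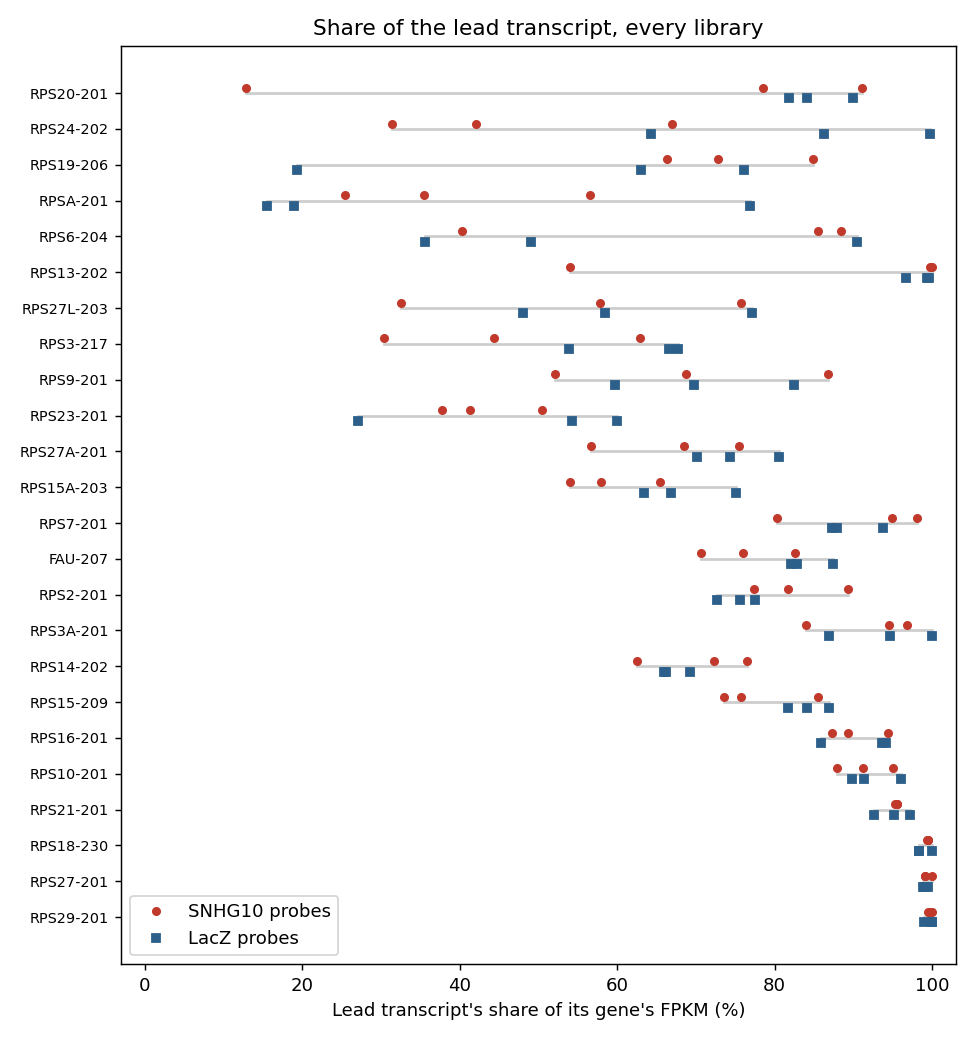
Share of each gene's FPKM held by its lead transcript, in percent, for 24 of the 28 members in every library, with circles for SNHG10 probes and squares for LacZ probes and a grey line over the range, widest at the top. RPS20-201 spans 12.9% to 91.1%, RPS29-201 spans less than 1 percentage point, and circles and squares overlap in all 24.

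Genes that build, load and regulate the small subunit gave no call either. Of 49 tested assembly factors, 0 passed, with 23 positive and 26 negative differences and a median of -0.01. UTP15 and UTP3, parts of the complex that processes the small-subunit RNA, had the smallest p, with 4.90, 2.96 and 4.38 FPKM in SNHG10 libraries, against 8.77, 10.9 and 8.35 FPKM in LacZ libraries for UTP15 (limma adjusted p = 0.864). UTP3 read 3.79, 2.84 and 1.29 FPKM in SNHG10 libraries, against 5.23, 8.19 and 7.28 FPKM in LacZ libraries. NOL6, of the same complex, read 10.8, 15.5 and 13.7 FPKM in SNHG10 libraries, against 21.8, 18.3 and 18.3 FPKM in LacZ libraries. All 3 lay lower without overlap. Of the 49, 3 (6.12%) lay higher and 5 (10.2%) lower without overlap, where the shares over all genes were 4.22% and 7.21%. Of 22 initiation and recycling factors that bind the subunit, 0 passed, with 7 positive and 15 negative differences. Their median was -0.17, beside -0.05 over all genes. EIF3G, a subunit of initiation factor eIF3, read 52.8, 39.99 and 53.0 FPKM in SNHG10 libraries, against 56.5, 62.4 and 68.9 FPKM in LacZ libraries, without overlap (limma adjusted p = 0.885). EIF3K, of the same factor, read 53.3, 68.6 and 50.05 FPKM in SNHG10 libraries, against 67.2, 86.5 and 69.9 FPKM in LacZ libraries. EIF3E, also of eIF3, read 137, 105 and 132 FPKM in SNHG10 libraries, against 115, 90.4 and 18.9 FPKM in LacZ libraries, and both overlapped.

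Of 17 genes that bind or control TOP mRNAs, 0 passed, with 3 positive and 14 negative differences and a median of -0.27, beside -0.05 over all genes. CNBP, a protein that binds such mRNAs, read 54.8, 65.3 and 52.3 FPKM in SNHG10 libraries, against 70.9, 78.2 and 78.3 FPKM in LacZ libraries, a difference of -0.40 ± 0.14 (SE, limma adjusted p = 0.885). CNBP alone of the 17 (5.88%) had an unadjusted limma p under 0.05, where the share over all genes was 5.42%. It was also the only one without overlap, where the share over all genes in either direction was 11.4%. SSB, the La protein, read 18.3, 11.01 and 7.85 FPKM in SNHG10 libraries, against 13.5, 26.4 and 26.1 FPKM in LacZ libraries, and MLST8, a partner of the kinase mTOR, read 6.57, 11.5 and 14.1 FPKM in SNHG10 libraries, against 12.1, 14.4 and 17.6 FPKM in LacZ libraries. Among the small-subunit mRNAs, the 19 with a pyrimidine start had 11 positive and 8 negative differences (median 0.08), and the 7 without had 3 and 4 (median -0.07).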

How the data were processed

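RNA was measured in 6 libraries from SK-Hep1 cells. Each deposited file gives FPKM for protein-coding transcripts, per the file headers. The submitters' processing notes name Bowtie2 2.1.0 and hg19, and the program that estimated FPKM is not given in the sources used here. Labels gave the probe set and number of each library. FPKM were summed per gene symbol. Testing used limma 3.58.1 in R 4.3.3 (eBayes with trend) on log2(FPKM + 1) of genes or rows reaching 1 FPKM in 3 or more libraries, which understates changes of low genes, with Benjamini-Hochberg adjustment over all of them and a threshold of 0.05. The fit was also run on the measured values shuffled within each row, with known changes put into some rows, and its recovery of them is not reported here. Single values were compared by two-sided exact permutation tests over 20 assignments (scipy 1.17.1, pandas 2.3.3). Where replicate number was a block, the signs of the differences between same-numbered libraries were flipped instead. Among all values, 159 lay between 0 and 0.001 FPKM, less than a whole read would give, so depth is unknown, and no counting interval was computed.

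The members and lists were chosen with earlier results of these data known. Named, where reported, were all non-overlapping members, the 8 with the smallest p, the 5 highest and 3 lowest by mean, both fusion genes, RPS27, RPS27L, RPSA and RPS6, non-overlapping rows of at least 5 FPKM on average in a probe set or of these members, and up to 3 genes per list by p. RPS4X, RPS12, RPS19, RPS20, RPS24 and rows present in a single library were named after their values were seen, as was the level of RPS27L as a limit. Some members are not reported here by name, though counts over all members hold them. The fits were repeated with replicate number as a block, without each library in turn, and with other filters, pseudocounts (0.1 and 5), scalings and variance settings.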

Additional observations from a re-analysis of the deposited data

How the results depend on the processing

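The number of small-subunit genes and rows past the threshold stayed at 0 in each direction under all 16 alternatives run in limma. Over all genes, leave-one-out runs gave 0 to 1 higher and 0 to 1 lower, with 1 higher without LacZ replicate 2 and 1 lower without SNHG10 replicate 1. All rows gave 26 higher and 27 lower in limma without trend, against 8 and 7, 2 to 3 each way with either other pseudocount or filter, and 0 with any library left out. Among the 33 members 15 differences were above 0, 17 under median-ratio scaling (which moved the median of all genes from -0.05 to -0.0021), 13 without LacZ replicate 3 and 18 without SNHG10 replicate 2. Of 224 alternative differences for 14 named genes, 1 reversed, RPS10, with a leave-one-out range of -0.0049 to 0.143. The share difference ranged from -0.0153 (without SNHG10 replicate 3) to 0.133 percentage points, and was 0.109 without mitochondrially encoded mRNAs in the total. The ratio difference ranged from -0.0072 to 0.0147 over leave-one-out runs and was -0.0038 without the 3 most abundant members. Lead shares that did not overlap numbered 1 (without LacZ replicate 3) to 7 (without LacZ replicate 2) with a library left out, where fewer libraries make separation easier, and 1 (FAU) with 1 FPKM added to each transcript. With the replicate number as a block, 0 genes and 0 rows were called, and the share and ratio differences were unchanged by construction. Their p came from flipping the signs of the differences between same-numbered libraries, and was 0.25 for the share and 1 for the ratio. That test cannot go below 0.25 here, and the share was higher in the SNHG10 library at every number. Members under an unadjusted limma p of 0.05 with the block numbered 9 (27.3%) against 5, where the share over all genes was 5.45%. In limma without trend such members numbered 2 (6.06%), where the share over all genes was 5.57%. Without LacZ replicate 2 they numbered 3 (9.09%), where it was 4.53%. Over all tested genes the correlation of deviations between same-numbered libraries was low, at 0.015, 0.012 and 0.016. Each library still correlated best with its own number, a hint from the data only. These correlations were not computed over the members alone, so they do not settle whether the numbers are pairs. The cause of these changes was not tested. With depth unknown, the precision of low values is unknown too.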
